A study of Mus musculus with 8 samples.

Results

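Histone H3 lysine 36 (H3K36) is methylated by a small set of SET-domain enzymes, and the genes for 7 of them, Setd2, Nsd1, Nsd2, Nsd3, Ash1l, Setd5 and Smyd2, were followed here as carriers of the mark that one of them writes. They were chosen by name and are 7 of 21853 mouse protein-coding genes. Each gene was taken as the body of its longest protein-coding transcript in GENCODE release M21 on the mm10 assembly. A gene was called marked when it had at least 4 exons and peaks of H3K36 trimethylation (H3K36me3) over at least 10% of its body in any library, which held for 8767 genes and for all 7 members. The mark on a gene body is not a measure of the enzyme it encodes, and neither transcript nor protein was measured here.

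SETD2 adds the third methyl group to H3K36 while it travels with elongating RNA polymerase II, so the trimethyl mark builds up over transcribed gene bodies and is low at promoters. NSD1, NSD2 and NSD3 add the first and second methyl groups and thereby supply substrate for SETD2. ASH1L, a Trithorax-group protein, also dimethylates H3K36. SMYD2 methylates H3K36 and several non-histone proteins, and whether SETD5 has its own H3K36 activity is debated. All of them draw their methyl groups from S-adenosylmethionine, which is regenerated through methionine synthase, a vitamin B12-dependent enzyme.

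The libraries were ChIP–seq of H3K36me3, that is, immunoprecipitation of chromatin followed by sequencing, in mouse embryonic fibroblasts (MEFs) from 1 E13.5 embryo, called Clone 1 in the labels and MEF 1 in the paper. The cells were i4F MEFs, which carry a doxycycline-inducible cassette of Oct4, Sox2, Klf4 and cMyc (OSKM), so the controls carried the silent cassette too. The study asked how OSKM reprogramming and vitamin B12 bear on this mark at 72 h, before induced pluripotent colonies form. MEF cells had medium for induced pluripotent stem cells alone, MEF B12 cells had 2 µM vitamin B12 in it, OSKM cells had doxycycline (1 µg/ml in the labels, 1 mg/ml in the paper), and OSKM B12 cells had both, all for 72 h. Each condition had 1 H3K36me3 library with 29046913 to 33399267 tags and 1 input library of sheared chromatin with more tags, so differences between conditions are described without replicates and without p-values. The embryo was the one of the study's MEF lines picked for its reprogramming efficiency. The cells were measured in bulk, and fewer cells with a marked gene cannot be told apart from less mark per cell.

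The OSKM library stood apart from the others over the whole genome. Its 65473 peaks covered 92.8 Mb, against 154 Mb in MEF, 166 Mb in MEF B12 and 166 Mb in OSKM B12, although it had the most tags. Every comparison with OSKM rests on that 1 library, and the part of immunoprecipitation efficiency in it was not tested. MEF B12 against MEF, OSKM B12 against MEF and OSKM B12 against MEF B12 do not use it. As a check of the cell type, 7 of 8 fibroblast marker genes, among them Fn1, Col1a2 and Col1a1, were covered over at least 10% in every library, with Twist1 free of peaks. Their summed density, in pileup per 1000000 tags per base, was 4.73 in MEF, 5.24 in MEF B12 and 5.44 in OSKM B12, and 2.86 in OSKM. None of 6 pluripotent, 5 epithelial and 4 blood and endothelial markers reached 10% in any library, and the only peaks in them covered 2.42% of Zfp42 in OSKM and 0.903% of Kdr in OSKM B12.

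Sequence from the trimethylase gene itself is given for a stretch called in every library and a stretch called in all but OSKM. Setd2 (ENSMUSG00000044791) lies on the forward strand of chromosome 9 and spans chr9:110532597-110618633, 86.0 kb with 21 exons. Its exons 4 and 6 are printed 5′ to 3′ from the GRCm38.p6 assembly, with the coding exon in capitals and 20 bases of intron on each side. Both were picked for lying in the longest stretch of their kind that held a short coding exon. Exon 4 (chr9:110553083-110553254 with its flanks) lay in a peak in all 4 libraries. Exon 6 (chr9:110561096-110561259 with its flanks), which encodes part of the catalytic SET domain, lay in a peak in MEF, MEF B12 and OSKM B12 and in none in OSKM.
Setd2 exon 4, kept in all 4 libraries: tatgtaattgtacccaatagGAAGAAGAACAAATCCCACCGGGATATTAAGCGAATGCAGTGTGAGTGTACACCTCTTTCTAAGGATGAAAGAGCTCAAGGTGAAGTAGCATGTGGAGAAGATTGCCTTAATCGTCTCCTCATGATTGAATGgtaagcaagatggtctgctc
Setd2 exon 6, called in all but OSKM: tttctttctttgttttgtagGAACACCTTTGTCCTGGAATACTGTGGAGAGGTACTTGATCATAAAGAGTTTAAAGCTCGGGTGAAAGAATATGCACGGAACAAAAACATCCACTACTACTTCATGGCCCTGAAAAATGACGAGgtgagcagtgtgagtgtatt

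The stretch of Setd2 called in all 4 libraries around exon 4 was 5517 bases long, and the stretch called in all but OSKM around exon 6 was 1412 bases long. Exons 7, 8 and 10 behaved like exon 6, wholly in a peak in the 3 other libraries and without a called base in OSKM. Exon 5 was in a peak in both B12 libraries only. From exon 13 to the last, exon 21, every exon of Setd2 was wholly in a peak in every library, apart from exon 17, of which 67.1% was covered in OSKM.

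The start of Setd2 had no peak in any library. The 250 bases before it (chr9:110532347-110532596, forward strand, RefSeq, GRCm38.p6) are shown as a stretch that stayed unmarked, with the GC box GGGCGG, searched on both strands, in capitals.
Setd2, before the start: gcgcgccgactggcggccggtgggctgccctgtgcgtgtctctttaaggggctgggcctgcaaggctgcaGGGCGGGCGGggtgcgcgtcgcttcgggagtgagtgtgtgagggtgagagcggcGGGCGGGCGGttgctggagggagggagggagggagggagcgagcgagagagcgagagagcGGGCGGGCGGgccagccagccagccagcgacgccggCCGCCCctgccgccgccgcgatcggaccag

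These bases were 76.0% G or C with 31 CpG dinucleotides, where the median of 32851 RefSeq windows of this kind was 52.4% and 6. The GC box, the motif of the Sp and KLF zinc-finger proteins, matched at 7 places that overlap each other in part, and 32.7% of all windows held it at least once.

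The 7 genes were long and densely spliced. Their median length was 86.0 kb with a median of 23 exons, against 23.6 kb and 10 exons for marked genes. Nsd1 (ENSMUSG00000021488, chr13:55209782-55318325) spans 109 kb, Nsd2 (ENSMUSG00000057406, chr5:33820725-33897966) 77.2 kb, Nsd3 (ENSMUSG00000054823, chr8:25602284-25719667) 117 kb, Ash1l (ENSMUSG00000028053, chr3:88950622-89079375) 129 kb and Setd5 (ENSMUSG00000034269, chr6:113077365-113153435) 76.1 kb, all on the forward strand. Smyd2 (ENSMUSG00000026603, chr1:189880492-189922363) spans 41.9 kb on the reverse strand and overlaps the antisense gene Gm37422. Nsd2 overlaps Nelfa and Ash1l overlaps Dap3, both protein-coding genes on the opposite strand, and ChIP signal over such bases belongs to neither gene alone.

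H3K36me3 over a gene was summarised as its density, the pileup per 1000000 tags of the peaks summed over the gene and divided by its length, with an exact 95% Poisson interval that covers counting error only. It was also summarised as the share of the gene body in peaks. The density of Setd2 was 0.417 (0.404 to 0.430) in MEF and 0.481 (0.467 to 0.496) with B12, and it was 0.184 (0.175 to 0.192) in OSKM and 0.473 (0.459 to 0.488) with B12. The OSKM value was the lowest by far, and the B12 libraries, whose intervals overlapped, lay above MEF. Values without a library name below are in the order MEF, MEF B12, OSKM, OSKM B12. Peaks covered 65.9%, 68.2%, 36.8% and 67.6% of Setd2. They were 18, 19, 21 and 16 in number, so in OSKM a smaller covered length was divided into more peaks. The longest peak was 15.6, 14.3, 5.52 and 15.2 kb.

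**Figure D1:**
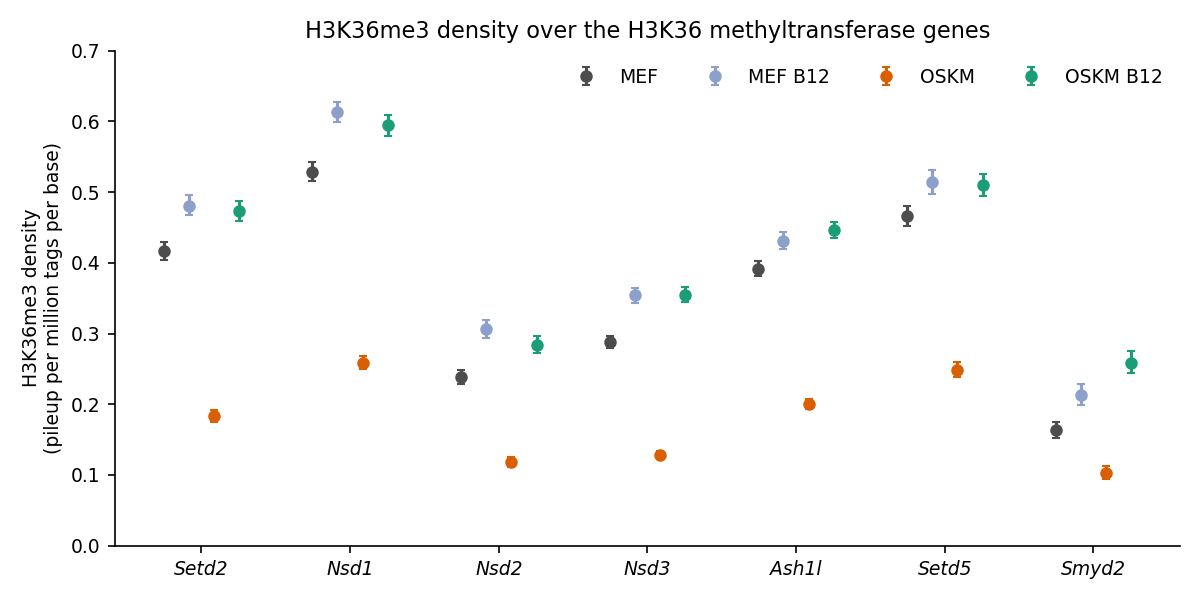
H3K36me3 density (y axis, pileup per 1000000 tags per base of the gene body) of the 7 genes (x axis) in the 4 libraries, 1 point per library with its exact 95% Poisson interval for counting error. The OSKM point of each gene lies below its other 3 points, from 0.103 for Smyd2 to 0.259 for Nsd1.

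Among the NSD genes, which encode the enzymes of the lower methylation states, Nsd1 was the most heavily marked gene of the 7. The density of Nsd1 was 0.529, 0.613, 0.259 and 0.595, and peaks covered 82.2%, 82.2%, 53.5% and 82.8% of it. Its marking was almost unbroken in MEF and in many short pieces in OSKM. Nsd1 had 14, 12, 41 and 14 peaks, with mean lengths of 6.38, 7.49, 1.42 and 6.57 kb.

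Nsd2 and Nsd3 carried less. The density of Nsd2 was 0.238, 0.306, 0.118 and 0.284, with 40.3%, 47.2%, 25% and 42.7% covered. Nsd2 was the gene whose number of peaks was not raised in OSKM, with 15, 13, 11 and 15. The density of Nsd3 was 0.288, 0.354, 0.128 and 0.355 in the same order, with 47.7%, 53.5%, 27.0% and 53.4% covered by 22, 20, 30 and 24 peaks. In both genes OSKM was lowest and the B12 libraries highest.

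Ash1l, whose product dimethylates H3K36, resembled Setd2 in level. The density of Ash1l was 0.391, 0.431, 0.2 and 0.446, with 61.4%, 60.2%, 40.4% and 62.2% covered. It had 24, 21, 36 and 15 peaks, and its longest peak was 30.8, 38.5, 9.12 and 38.2 kb, the longest of any member in MEF, MEF B12 and OSKM B12. Its 3′ part was called as a few long peaks outside OSKM and as many short ones in it.

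Setd5, the member of debated activity, was second in level after Nsd1. The density of Setd5 was 0.466, 0.514, 0.249 and 0.510, with 63.2%, 60.1%, 46.0% and 60.1% covered by 6, 6, 13 and 5 peaks. Smyd2, which has many non-histone substrates, was the lowest. The density of Smyd2 was 0.163, 0.213, 0.103 and 0.259, with 31.2%, 40.8%, 22.6% and 49.5% covered by 7, 6, 9 and 13 peaks. Smyd2 was the gene in which OSKM B12 exceeded the other libraries by more than the counting intervals, with intervals of 0.244 to 0.275 against 0.199 to 0.228 in MEF B12. With only peaks of −log10 q of at least 5 the order turned, with 13.5% of Smyd2 covered in OSKM B12 against 23.6% in MEF B12.

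The order of densities was Nsd1, Setd5, Setd2, Ash1l, Nsd3, Nsd2 and Smyd2 in MEF, MEF B12 and OSKM B12. In OSKM, Ash1l at 0.2 (0.193 to 0.208) and Setd2 at 0.184 (0.175 to 0.192) changed places, and Nsd1 at 0.259 (0.250 to 0.268) and Setd5 at 0.249 (0.239 to 0.260) overlapped in their counting intervals. Other neighbours in the OSKM order, Nsd3 at 0.128 (0.122 to 0.134) and Nsd2 at 0.118 (0.111 to 0.125), overlapped too, as did Nsd2 and Smyd2 at 0.103 (0.0941 to 0.112). In OSKM B12, Nsd2 at 0.273 to 0.296 and Smyd2 at 0.244 to 0.275 were the overlapping pair. Among marked genes the members spread widely, from the 29.6th percentile (Smyd2) to the 83.8th (Nsd1) in MEF and from the 40.7th to the 74.3rd in OSKM. The covered share of the members had a median of 61.4% in MEF, where 2101 other marked genes of 41.9 to 129 kb had a median of 38.1%. In OSKM, the medians were 36.8% and 19.3%.

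The first comparison, OSKM against MEF, asks how the mark differed after doxycycline induction of OSKM without B12. No library had doxycycline without the cassette, so doxycycline itself cannot be told apart from OSKM here. Density was lower in OSKM in all 7 genes, and at least 1.5-fold lower in 6, where 68.6% of marked genes passed the same fold. Changes are given on the log2 scale with 0.05 added to each density, which makes those of low genes smaller. Setd2 fell by 1.00, the largest change of the 7, with an OSKM to MEF ratio of 0.440 (0.416 to 0.465). Nsd3 changed by -0.93, Nsd1 by -0.91, Ash1l by -0.82, Setd5 by -0.79 and Nsd2 by -0.78. Smyd2, at -0.48, was the gene that missed the fold with 0.05 added, while its unadded ratio of 0.632 (0.564 to 0.709) is past it.

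The fall was broad and not particular to these genes. Their median change was -0.82, beside -0.71 for all marked genes and -0.78 for the 2101 of similar length. Setd2 lay at the 18.7th percentile of marked changes, so 18.7% of marked genes had a lower one, and Smyd2 lay at the 82.6th. Taken relative to the median of marked genes, 0 of 7 passed 1.5-fold, beside 5.86% of marked genes. Smyd2 lay above that median, at 0.23. OSKM was the lowest of the 4 libraries in all 7 members, as in 97.3% of marked genes.

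The fall was seen in covered length and in the mean pileup of the peaks. Each base carries the mean pileup of its peak, so the ratios below compare peak means and not heights at single bases. Over the bases of each gene in a peak in all 4 libraries, the OSKM to MEF ratio of pileup per 1000000 tags was 0.753 for Setd2, 0.742 for Nsd1, 0.723 for Nsd2, 0.752 for Nsd3, 0.732 for Ash1l, 0.694 for Setd5 and 0.877 for Smyd2. The median over the 7468 marked genes with such bases was 0.777. By these peak means no member was 1.5-fold lower, and the quartiles of those marked genes were 0.73 and 0.83. Such bases are in an OSKM peak by definition, so bases without a call in OSKM do not enter these ratios. The covered share changed by -29.1 percentage points in Setd2, -28.7 in Nsd1 and -8.6 in Smyd2.

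The second comparison, OSKM B12 against OSKM, asks what vitamin B12 did during reprogramming. Density was at least 1.5-fold higher in OSKM B12 in 7 of 7 genes, close to the 95.2% of marked genes that passed. The log2 change was 1.16 in Setd2 (ratio 2.57, 2.44 to 2.72), 1.06 in Nsd1, 0.99 in Nsd2, 1.19 in Nsd3, 0.99 in Ash1l, 0.91 in Setd5 and 1.02 in Smyd2. The median of the members was 1.02 and that of marked genes 0.98. Setd5 was the gene below the marked median, at -0.08 relative to it. None of the 7 passed 1.5-fold on that scale, beside 4.3% of marked genes.

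Over bases called in all 4 libraries, the OSKM B12 to OSKM ratio of pileup was 1.47 in Setd2, 1.51 in Nsd1, 1.66 in Nsd2, 1.51 in Nsd3, 1.52 in Ash1l, 1.62 in Setd5 and 1.33 in Smyd2, with a median of 1.51 over marked genes. On these bases 5 of 7 were at least 1.5-fold higher, where Setd2 and Smyd2 missed the fold. The median of 1.51, over the 7468 marked genes with at least 1 kb of such bases, was past it too. The quartiles of those genes were 1.38 and 1.64, so Setd2 lay between them and Smyd2 below. Bases without an OSKM peak are left out here as well. Smyd2, the lowest here, had the largest relative gain in covered share, from 22.6% to 49.5%. Both comparisons share the OSKM library, so a low value there lowers the first and raises the second, and the 3 that follow share the other libraries among them.

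In MEFs without doxycycline, the changes with B12 were smaller in size. MEF B12 against MEF gave log2 changes of 0.18 in Setd2, 0.20 in Nsd1, 0.31 in Nsd2, 0.26 in Nsd3, 0.12 in Ash1l, 0.13 in Setd5 and 0.31 in Smyd2. All 7 were above 0, as in 92.2% of marked genes, but the direction depended on the scaling. Without division by tags, Setd2 and Nsd1 were at 0.04 and Ash1l and Setd5 at -0.02, and over bases called in all 4 libraries Smyd2 was at -0.04. Relative to the median of marked genes, Setd2 was at -0.03, Nsd1 at -0.01, Ash1l at -0.09 and Setd5 at -0.08. In all, 0 of 7 were 1.5-fold higher, with 3.44% of marked genes past that fold. Their median of 0.20 lay beside a marked median of 0.21. Whether the B12 changes of OSKM and MEF cells differ could not be tested with 1 library each.

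With B12, reprogramming cells and MEFs were close. OSKM B12 against MEF B12 gave log2 changes between -0.09 in Nsd2 and 0.23 in Smyd2, with Setd2 at -0.02, Nsd1 at -0.04, Nsd3 at 0.00, Ash1l at 0.04 and Setd5 at -0.01. None was 1.5-fold higher, with 2.2% of marked genes past it. With only peaks of −log10 q of at least 5, Smyd2 was at -0.33. OSKM B12 against untreated MEF gave 0.16 in Setd2, 0.16 in Nsd1, 0.21 in Nsd2, 0.26 in Nsd3, 0.17 in Ash1l and 0.12 in Setd5, and 0.54 in Smyd2, whose density without the added 0.05 was 1.59 times as high (1.45 to 1.75). Again 0 of 7 passed the fold, with 6.97% of marked genes past it, and Smyd2 lay at the 90.7th percentile of marked changes. Under the same q filter Smyd2 was at 0.14 in this comparison. Relative to the median of marked genes, Setd2 was at -0.10, Nsd1 at -0.11, Nsd2 at -0.05, Ash1l at -0.09 and Setd5 at -0.14.

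**Figure D2:**
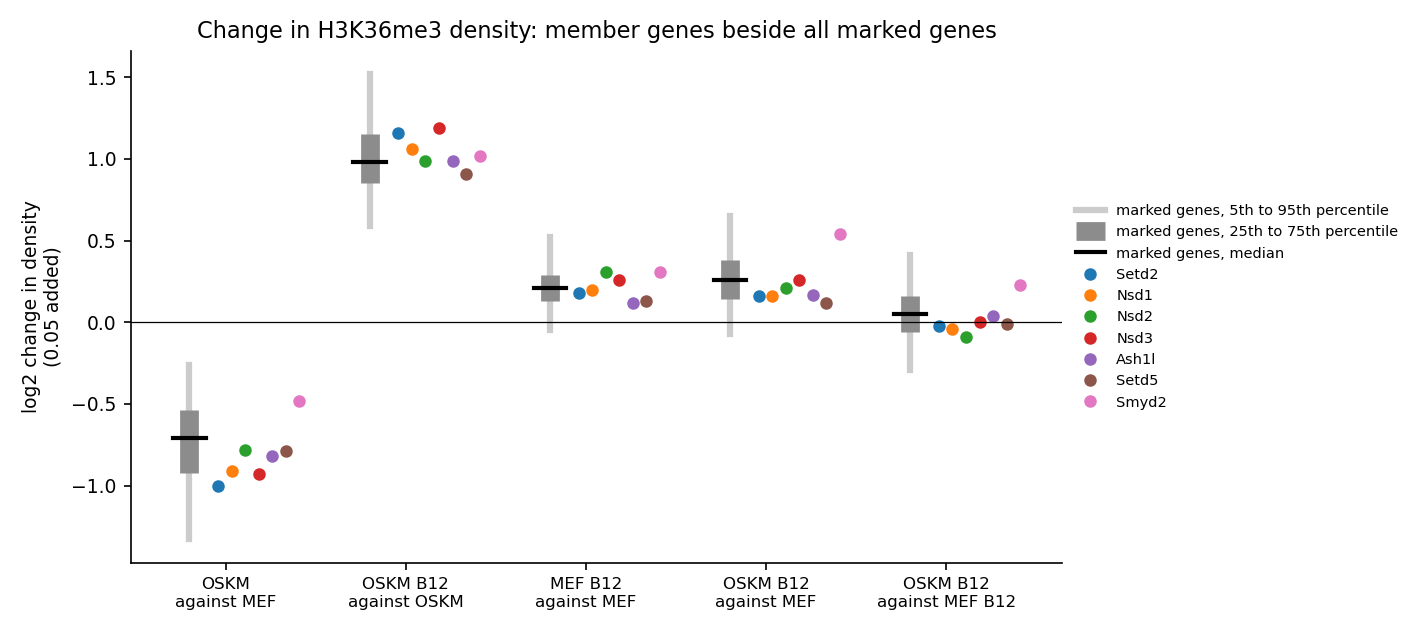
Log2 change in density (y axis, 0.05 added) of the 7 genes (coloured points) in 5 comparisons (x axis), beside the 5th to 95th percentile, the 25th to 75th percentile and the median of 8767 marked genes (grey bars, black line). The members lie within the spread of marked genes in each comparison, and Smyd2 is the highest member, or level with Nsd2, in all but OSKM B12 against OSKM.

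Where the mark lay was much alike in the 7 genes. None had a peak in its first 2 kb in any library, as in 72.4% of marked genes. All 7 were more covered from the second exon on than before it in every library, which held for 93.9% of marked genes. In Nsd1, Nsd2 and Ash1l no base before the second exon was in a peak. In Nsd2 that stretch is only 0.934 kb, within the first 2 kb. Its first MEF peak of at least 1 kb began 34.4 kb from the start. In Nsd3, whose first intron is 37.8 kb long, 1.06%, 5.85%, 2.98% and 3.52% of the bases before the second exon were covered, against 70.3%, 76.5%, 38.6% and 77.6% of those after.

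Setd5 had the widest step at its second exon. Its second exon starts at position 113104935 of chromosome 6, 27.6 kb after the first, and RefSeq's promoter window for Setd5 ends there. From that base on, peaks covered 96.4%, 93.1%, 72.1% and 93.8% of the gene, against 4.85%, 1.93%, 0% and 0.736% before it. The first peak at the boundary began 191 bases after that exon's first base in MEF and 981 after it in OSKM, and 192 and 203 bases before it in MEF B12 and OSKM B12. The 250 bases before the exon (chr6:113104685-113104934, forward strand, RefSeq, GRCm38.p6) are shown with the 203 bases of the OSKM B12 peak in capitals.
Setd5, before the second exon: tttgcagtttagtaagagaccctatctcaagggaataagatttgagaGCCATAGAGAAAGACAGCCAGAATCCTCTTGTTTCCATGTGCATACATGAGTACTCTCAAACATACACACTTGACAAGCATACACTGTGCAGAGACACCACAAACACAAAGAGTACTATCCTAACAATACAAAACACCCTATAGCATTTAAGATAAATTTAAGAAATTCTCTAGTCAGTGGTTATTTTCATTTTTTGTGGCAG

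These bases were 36.8% G or C, with 0 CpG dinucleotides and 0 GC boxes, and thus unlike those before the Setd2 start. All 4 edges lay within 1 kb of the exon's first base. In OSKM that peak was short, from 28.551 to 28.881 kb after the gene's start, and the next OSKM peak began at 32.352 kb.

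The median coverage of the members rose along the gene body. In 5 equal parts of the gene body from start to end, the median covered share of the members was 8.78%, 29.6%, 60.9%, 77.2% and 97.2% in MEF and 1.89%, 11.5%, 37.1%, 53.5% and 61.3% in OSKM. In OSKM B12 it was 3.30%, 39.7%, 65.1%, 83.8% and 91.3%. Single genes did not all follow the median. Setd2 rose from the first part to the second and not steadily after it, with 19.1%, 81.7%, 75.5%, 72.0% and 81.1% in MEF and 11.8%, 45.2%, 52.2%, 36.2% and 38.7% in OSKM. Smyd2 was less covered in the last part than in the one before it in every library, at 41.4% after 59.4% in MEF.

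At the 3′ end, peaks ran past several genes. The last peak of Setd2 ended 4.47, 4.56, 1.60 and 4.69 kb past the gene. That of Setd5 ended 3.31, 2.96, 1.06 and 3.15 kb past. In both, the OSKM peak was the shortest. The last peak of Nsd2 ran 6.20, 6.26 and 6.24 kb past its end, over the convergent Nelfa, in MEF, MEF B12 and OSKM B12, and stopped 72 bases before the end in OSKM. In Nsd3 the last peak ended inside the gene in every library, 0.910 to 1.36 kb before its end.

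**Figure D3:**
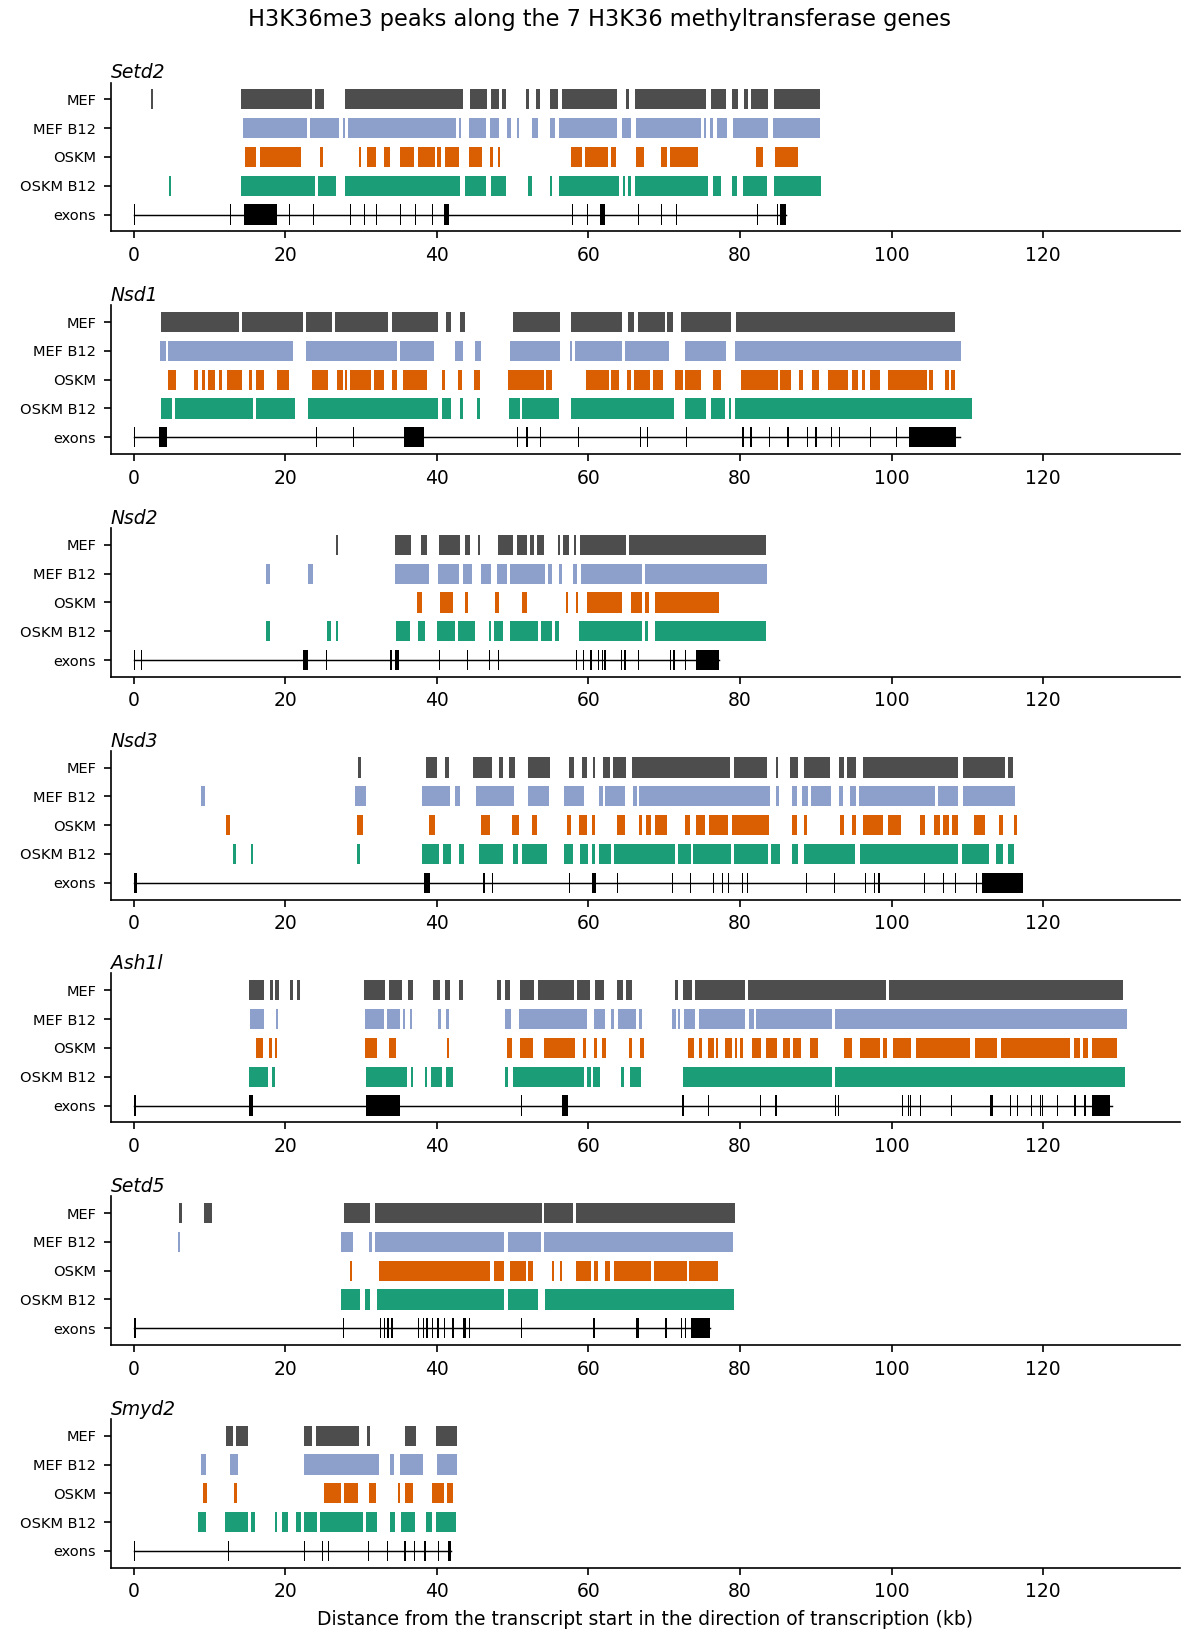
H3K36me3 peaks along the 7 genes (1 panel each) in the 4 libraries (coloured bars), with exons in black, by distance from the transcript start in the direction of transcription (x axis, kb). Peaks are absent from the start of every gene, and OSKM peaks are shorter and farther apart, with 41 in Nsd1 against 14 in MEF.

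The OSKM library divided the mark into more pieces. More peaks were called in OSKM than in MEF in 6 of 7 genes, all but Nsd2, where 45.5% of marked genes, and also 45.5% of those of 41.9 to 129 kb, did so. Fewer peaks were called in OSKM B12 than in OSKM in 5 of 7, all but Nsd2 and Smyd2, where 45.9% of marked genes did. The longest peak was shorter in OSKM than in each of the other libraries in 7 of 7, as in 92.3% of marked genes. These counts over 7 genes have no test.

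Many of the bases in a MEF peak but in no OSKM peak, called lost here, were in a peak in OSKM B12. Of the bases of Setd2 in a MEF peak, 55.3% were in an OSKM peak, which left 25.4 kb without one, and 83.2% of those 25.4 kb were in an OSKM B12 peak. The share kept was 60.5% in Nsd1, 58.2% in Nsd2, 51.1% in Nsd3, 63.8% in Ash1l, 72.6% in Setd5 and 53.7% in Smyd2. The share of lost bases found again in OSKM B12 was 90.0% in Nsd1, 64.6% in Nsd2, 86.0% in Nsd3, 81.3% in Ash1l, 75.7% in Setd5 and 90.0% in Smyd2. Over the 7 genes together, 60.1% of MEF bases were kept and 83.0% of the lost ones were found again, beside 57.6% and 76.0% over marked genes. MEF B12, which had no doxycycline, held 82.2% of the same lost bases. Few OSKM bases were new, from 0.174% of those in Setd5 to 9.56% in Nsd3, but in Smyd2 25.9% of the OSKM bases lay outside the MEF peaks.

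The lost bases lay, on average, in weaker MEF peaks. Their mean MEF pileup per 1000000 tags was 0.595 against 0.665 over kept bases in Setd2, 0.617 against 0.660 in Nsd1, and 0.504 against 0.654 in Nsd2. It was 0.569 against 0.636 in Nsd3, 0.562 against 0.680 in Ash1l, 0.622 against 0.781 in Setd5 and 0.479 against 0.559 in Smyd2. The lost bases were lower in 7 of 7 genes, as in 86.2% of the 6402 marked genes with at least 1 kb of each. Pileup is a mean per peak, so lost and kept bases of the same MEF peak have the same value. How far the calling cut-off set this order was not tested.

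Exons were more covered by peaks than introns. The first introns, which were little covered, count as intron here, and their part in the gap was not tested. Peaks covered 96.4% of the exon bases of Setd2 and 62.6% of its intron bases in MEF, and 83.0% and 31.9% in OSKM. The B12 libraries stood at 97.9% and 65.0% in MEFs and at 97.9% and 64.3% in reprogramming cells. Exons were more covered than introns in every library in 7 of 7 genes, where 64.9% of marked genes did the same. In OSKM the gap was widest in Setd2 and Setd5, where 90.7% of exon and 41.6% of intron bases were covered. Of the 153 exons of the 7 genes, 121, 129, 93 and 128 were wholly in a peak, and 18, 16, 40 and 14 had no base in one.

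The bases that stayed marked were also richer in exon. Of the 218904 bases in a peak in all 4 libraries, 17.6% were exonic, against 9.31% of the 109112 called in all but OSKM and 2.14% of the 195730 in no peak. Over all marked genes the same shares were 19.2%, 12.1% and 3.99%. The difference was large in Setd2, at 22.4% against 6.07%, and in Setd5, at 17.6% against 1.12%, and was slight in Nsd3, at 11.9% against 11.5%, and Smyd2, at 9.02% against 8.44%. The exon share was lower in the bases missing from OSKM in 7 of 7 genes, as in 71.8% of the 5844 marked genes with at least 1 kb of each. The G and C content of the classes was 42.6%, 40.8% and 41.0%, and its part in what was called was not tested.

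**Figure D4:**
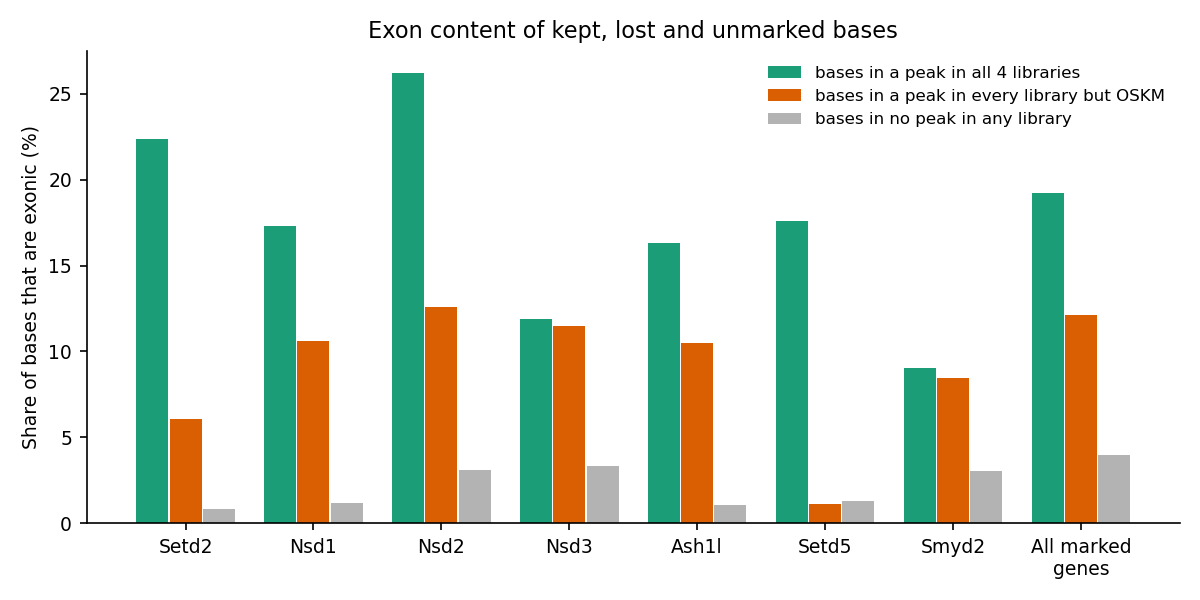
Share of bases that are exonic (y axis, %) among bases in a peak in all 4 libraries (green), in a peak in every library but OSKM (orange) and in no peak in any library (grey), for the 7 genes and all marked genes together (x axis). The green bar is above the orange one in every gene, from 22.4% against 6.07% in Setd2 to 9.02% against 8.44% in Smyd2.

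The largest exons followed the same course. Exon 3 of Setd2, 4286 bases long, was wholly in a peak in MEF, MEF B12 and OSKM B12 and 86.8% covered in OSKM. Exon 3 of Ash1l, 4558 bases long, was 88.6%, 92.2%, 53.9% and 97.7% covered. The last exon of Nsd1, 6207 bases long, was 97.9%, 100%, 61.8% and 100% covered. That of Nsd2, 3061 bases long, was 97.6% covered in OSKM and wholly covered elsewhere. The last exon of Nsd3 was the least covered of these, at 69.6%, 80.3%, 23.8% and 51.2%, whereas the last exons of Setd5 and Smyd2 were wholly covered in every library.

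The other genes of the pathway were counted by the same fold. Of 13 genes for proteins that bring SETD2 to the polymerase or act in elongation, all marked, 9 were at least 1.5-fold lower in OSKM than in MEF and 13 at least 1.5-fold higher in OSKM B12 than in OSKM, with median log2 changes of -0.67 and 1.00. The most heavily marked were Hnrnpl, at 0.719, 0.939, 0.472 and 0.999, and the elongation factor genes Supt5 and Supt6. Of 6 H3K36 demethylase genes, 5 were marked, with 2 lower in OSKM and 5 higher in OSKM B12 and medians of -0.58 and 0.94. Kdm4a, which encodes a demethylase of H3K36 and H3K9, had densities of 0.846, 0.974, 0.549 and 1.09. The 2 that passed the fold in OSKM, named after their values were seen, were Kdm2a at -0.85 and Kdm4c at -1.10, and the unmarked one was Kdm4d, with no peak in any library. These shares lie beside 68.6% and 95.2% of all marked genes.

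Of 14 genes for readers of H3K36 methylation, such as Glyr1, Brd1 and Brpf1, all were marked, with 11 lower in OSKM and 13 higher in OSKM B12 and medians of -0.72 and 0.97. Of 29 genes for other SET-domain lysine methyltransferases, 24 were marked, with 16 lower and 23 higher and medians of -0.66 and 1.01. Kmt2d, which encodes an H3K4 methyltransferase, had the highest MEF density of these at 1.03, above Nsd1. In these 4 lists no gene passed the fold in OSKM B12 against MEF, and 1 did so in MEF B12 against MEF. That gene, named after its value was seen, was Suv39h2, a little marked H3K9 methyltransferase gene, at 0.88.

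The marked genes whose 4 log2 densities lay nearest to those of Setd2, by Euclidean distance over the 4 libraries, were Maged2 (0.038), Taok1 (0.0481) and Prmt9 (0.060). Their densities were 0.418, 0.495, 0.182 and 0.472 for Maged2, 0.425, 0.483, 0.179 and 0.462 for Taok1, and 0.418, 0.502, 0.181 and 0.480 for Prmt9. The nearest other H3K36 methyltransferase gene was Ash1l at 0.207, with 195 marked genes nearer.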

How the data were processed

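The values were the 4 deposited lists of broad H3K36me3 peaks, 1 per condition. Per the submitters' processing notes and the file headers, reads were aligned by the authors to mm10 using Bowtie 0.12.9, and they called peaks on each library against its own input with MACS2 2.2.6, with q cut-offs of 0.05 and 0.1 and an effective genome size of 3209286105. That size is above the real one, and its effect was not tested. Pileup, as deposited, is an unscaled signal that averages the overlapping extended fragments of a peak. The deposited fold enrichment is a ratio to the local input, and the deposited p-value and q-value are on the −log10 scale. Both were used only in alternatives and to describe peaks. The authors' peak lengths and positions set the covered bases.

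Pileup was divided by the tags of the library and multiplied by 1000000. Density, covered share and overlaps were computed in bases with Python 3.11.15, numpy 2.4.6, scipy 1.17.1 and samtools 1.23.1, and the calculations were tested on simulated data. Peaks on unplaced scaffolds (16, 15, 1 and 14 in MEF, MEF B12, OSKM and OSKM B12) were left out. Fragments for the Poisson intervals were estimated from pileup, bases and a fragment length of 288 to 292 bases, with reads that share molecules not separated. Depth was 29046913 to 33399267 tags, and a stretch without a peak had no enrichment detectable at this depth.

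The groups came from the labels. No test was possible with 1 library per condition, and a gene was counted as changed past 1.5-fold. The members, lists and rules were chosen with earlier results of these data known. Named genes were the 7 members in all libraries, at most 3 genes per list by MEF density, and the 3 marked genes nearest to Setd2. The splits at the second exon and by exon were chosen after seeing the peak positions. Alternatives changed peak filters, gaps, gene span, scaling, measure, pseudocount, bases and fold. Promoter windows matched 3 of 7 members, and those of Nsd1, Nsd2, Nsd3 and Ash1l were not used here.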

Additional observations from a re-analysis of the deposited data

Results flagged for a closer look

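Several pairs of contrasts moved in opposite directions. With 1 library per condition, none of these differences was tested, and the pairs share the value of the OSKM library. Both pairs given for Nsd1, Ash1l and Setd5 rearrange the same values. Their differences are equal by construction and count as 1 observation per gene. The covered share of Nsd1 changed by -0.0645 percentage points with B12 in MEF and by 29.3 in OSKM, a difference of 29.4. Arranged the other way, that 29.4 is the gap between the change with OSKM induction without B12, -28.7, and that with B12, 0.655. For Ash1l these changes were -1.22 and 21.8 with B12 and -21.0 and 1.99 with OSKM, and both pairs differed by 23.0 percentage points. For Setd5 they were -3.14 and 14.1 with B12 and -17.2 and 0.0118 with OSKM, and both pairs differed by 17.3 percentage points. The covered share of Smyd2 changed by -8.6 percentage points with OSKM in the absence of B12 and by 8.76 in its presence, 17.4 apart. With only peaks of −log10 q of at least 5, several of these directions turned. Nsd1 went from 56.9% covered in MEF to 79.3% in MEF B12 and then to 62.2% in OSKM B12, Setd5 from 52.1% to 56.9% and then to 56.0%, and Smyd2 from 23.6% in MEF B12 to 13.5% in OSKM B12. The directions of Ash1l held there.

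The log2 density changed in opposite directions with OSKM in the absence and in the presence of B12 in 3 genes. In Nsd3 the changes were -0.93 and 0.00, a difference of 0.93, in which the second is above 0 only in digits not shown. It was -0.01 with an equal number of peaks, -0.01 with fold enrichment and -0.05 relative to the median of marked genes, so the opposite direction was lost. In Ash1l they were -0.82 and 0.04, a difference of 0.86. The second was 0.00 relative to the median of marked genes, and its ratio of 1.03 had a counting interval of 0.997 to 1.07. In Smyd2 the changes were -0.48 and 0.23, a difference of 0.71. They were -1.47 and -0.33 with only peaks of −log10 q of at least 5.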

How the results depend on the processing

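The number of the 7 genes at least 1.5-fold lower in OSKM than in MEF, 6 as reported, was 0 after subtracting the median change of marked genes, 0 over bases in a peak in all 4 libraries, 0 at a fold of 2 and 2 with a pseudocount of 0.2. It was 7, with Smyd2 past the fold, with a pseudocount of 0.01 (Smyd2 at -0.61) and with −log10 q of at least 5 (-1.47). Of marked genes, 5.86% passed after subtracting the median and 60.4% with −log10 q of at least 5. Their lower quartile was a log2 change of -0.92, short of a fold of 2. Over bases called in all 4 libraries, so also in OSKM, it was a ratio of 0.73, short of 1.5-fold. Shares of marked genes with other pseudocounts are not given here. The number at least 1.5-fold higher in OSKM B12 than in OSKM, 7 as reported, was 0 after subtracting the median, 4 at a fold of 2 and 5 over bases in a peak in all 4 libraries. After subtracting the median, 4.3% of marked genes passed. The quartiles of marked genes were log2 changes of 0.85 and 1.15, on either side of a fold of 2. Over bases in a peak in all 4 libraries they were ratios of 1.38 and 1.64, on either side of 1.5-fold. The number higher in OSKM B12 than in MEF, 0 as reported, was 1 with only peaks of −log10 q of at least 5, 1 with peaks at most 1 kb apart merged and 1 with a pseudocount of 0.01. The gene was not the same throughout. It was Nsd3 (0.64) with the q filter, where Smyd2 was at 0.14, and Smyd2 (0.72) with merged peaks. The share of marked genes past this fold was 23.7% with that q filter and 7.51% with merged peaks. The log2 change of Setd5 in OSKM B12 against OSKM turned to -0.08 after subtracting the median. The fall of the count under a higher fold or pseudocount follows from their construction, and elsewhere the cause was not tested. Over all alternatives, the log2 changes of the members ranged from -2.55 to 0.23 in OSKM against MEF, with 1 of 91 values above 0, and from -0.08 to 2.82 in OSKM B12 against OSKM. Taking Setd5 from its second exon was chosen after seeing the data. No replicate could be left out. No paired analysis was possible because there is 1 library per condition.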
